A study of Crocodylus porosus with 60 samples.

Results

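miR-181a-5p is a mature microRNA of the miR-181 family, and it was followed over the tissues of hatchling saltwater crocodiles (Crocodylus porosus) by small RNA sequencing. It is 1 of the 654 rows of the deposited expression table and was taken by its name, cPor-miR-181a-5p. It is also the 1 row of that table named for this family, so no other family member or arm was compared with it. The 15 libraries came from 10 tissues: 2 of brain, 1 each of tongue, cloaca and jaw skin, 2 of heart, 1 each of spleen, small intestine and stomach, 4 of testis and 1 of liver. Each library has 1 column of values, although 4 deposited samples carry its name, and the column used for cloaca is headed as cloacal gland.

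The column headers place 1 brain, 1 heart and 2 testis libraries in runts and as many in normal hatchlings, and give no size class for the other tissues. Per the labels, runts measured 386.2 ± 23.6 mm at 359 days and normal hatchlings 740.2 ± 73.5 mm at 373 days. Age therefore cannot be told apart from size class. No strain, genetic change or drug treatment is given for any group. Whether libraries of 1 size class came from separate animals is not stated. The spread behind each p-value is that between these libraries. Comparisons of tissues had tissue as their only term, so their spread also holds the difference between runt and normal libraries. Between libraries of 1 size class, the spread may be technical.

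MicroRNAs are short RNAs that guide a silencing complex to messenger RNAs through pairing at the seed near their 5′ end. In mammals, miR-181a is known in several cell types. In mouse thymus it raises the sensitivity of the T cell receptor in developing T cells, in rodent neurons it lowers an AMPA receptor subunit, and in mouse myoblasts it acts during muscle differentiation through a Hox gene. These roles are background from mammals and were not measured here.

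Levels are in RPM, reads that the authors made relative to the size of each library. Tissues were checked against miRNAs known to mark them, but tongue, cloaca and stomach had no marker of their own. The summed brain markers reached 44533 and 52619 RPM in the runt and normal brain libraries, against at most 2871 RPM in any other library. Heart, liver, small intestine, jaw skin, spleen and testis were each highest for their own markers. The smooth muscle marker was highest in stomach, at 107486 RPM, followed by small intestine at 62441 RPM. One row, miR-N444, which has no family name, took 60.0% of the RPM total of the second normal testis library, and 2.01% to 34.4% elsewhere. Because such a row lowers the share left for all others, tests used RPM rescaled by a trimmed mean of log ratios, called scaled RPM here. All listed rows together held 55.3% to 81.5% of the RPM total of a library. Shares of listed RPM, given below for miR-181a-5p, are therefore on another scale than these shares of miR-N444. The depth estimated from the smallest step between values was lowest for jaw skin, at 540811 reads, and highest for the normal brain, at 4758050.

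miR-181a-5p was abundant in every library and highest in brain. In brain it stood at 127211 RPM in the runt and 41873 RPM in the normal hatchling. In the single libraries it stood at 35773 RPM in tongue, 34749 in cloaca, 33813 in jaw skin, 22308 in spleen, 19697 in small intestine, 19653 in stomach and 10761 in liver. Heart had 16259 RPM in the runt and 48686 RPM in the normal hatchling. Testis had 19582 and 31448 RPM in the 2 runt libraries, and 16600 and 8501 RPM in the 2 normal ones. The runt brain library was the highest of all 15, but the normal brain library lay below the normal heart library. The lowest library was the second normal testis, and the lowest tissue was liver.

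**Figure D1:**
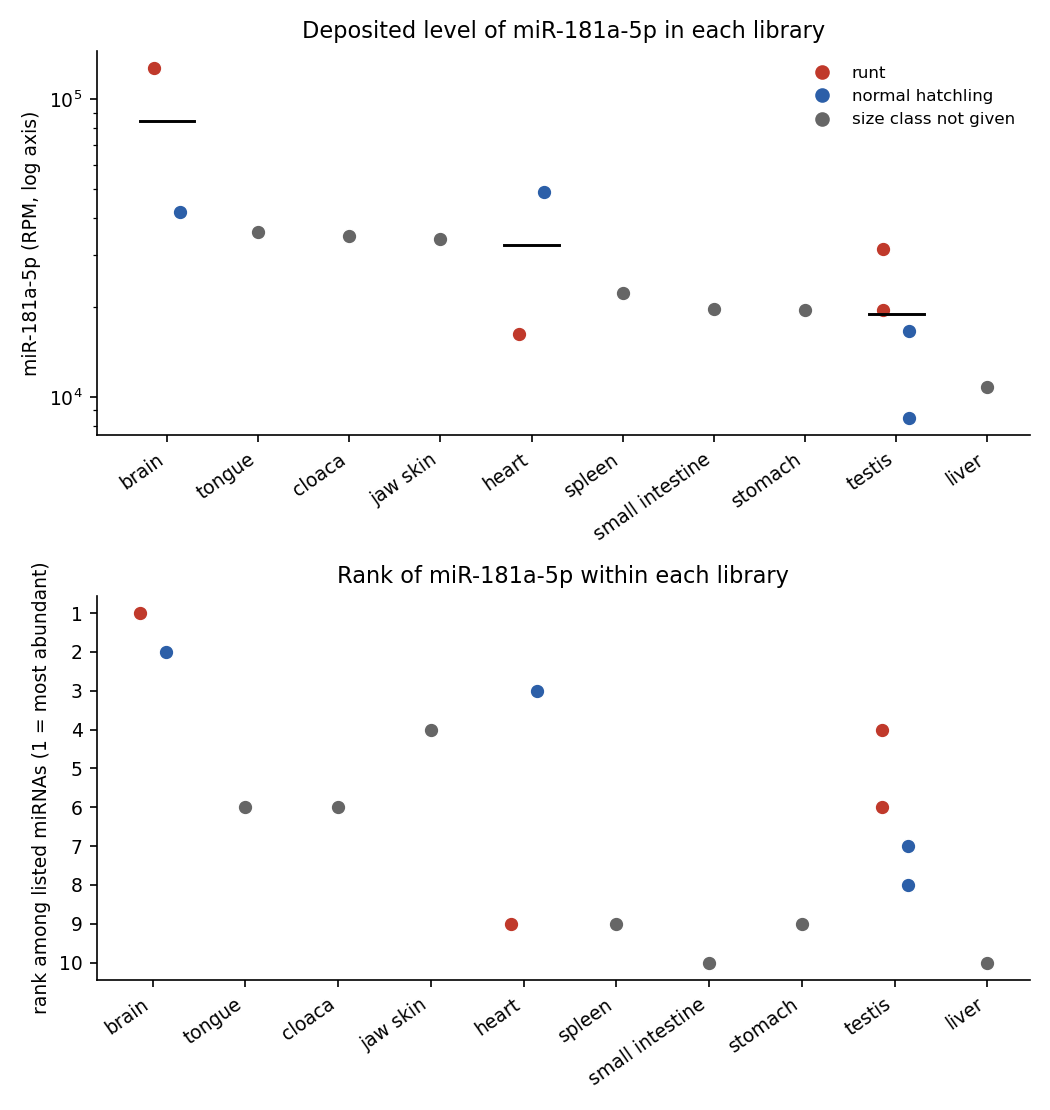
Upper panel: RPM of miR-181a-5p (log axis) in each of the 15 libraries, by tissue, with runts in red, normal hatchlings in blue and libraries with no stated size class in grey; black lines are means of tissues with several libraries. Lower panel: its rank among the listed miRNAs of the same library, which was 1 and 2 in the brain libraries and between 3 and 10 elsewhere.

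Tissue means ran from 84542 ± 60343 RPM in brain (SD, n = 2) through 32472 ± 22929 RPM in heart (SD, n = 2) and 19033 ± 9509 RPM in testis (SD, n = 4) to 10761 RPM in the single liver library. The mean over the 10 tissues was 31280 ± 20542 RPM (SD over tissues). The brain mean was 3.33 times the mean of the other 9 tissues, 2.36 times the tongue level, 4.44 times the testis mean and 7.86 times the liver level. These steps have to be read against replicates of 1 tissue, whose highest library exceeded the lowest 3.04-fold in brain, 2.99-fold in heart and 3.70-fold in testis. Tongue, cloaca, jaw skin and heart followed each other in steps of 1.03 to 1.04 times, far inside that spread. Small intestine, stomach and testis followed in steps of 1.00 and 1.03 times. The exact 95% Poisson interval of the tongue level, on the reads estimated for it, was 35358 to 36193 RPM and that of cloaca 34394 to 35107 RPM. Counting error, the only error these intervals cover, was therefore smaller than the step, and the replicate spread was larger.

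The order below brain depended on the scale. On scaled RPM brain averaged 85982, heart 32930, jaw skin 31099, cloaca 27619, tongue 26997, small intestine 23863, stomach 23857, spleen 21328, testis 16844 and liver 12360. Brain stayed first and liver last on both scales, while tongue moved to position 5 and heart to position 2. The testis libraries came together, at 15781 and 19495 scaled RPM in runts and 16437 and 15663 in normal hatchlings.

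Within its own library, miR-181a-5p was the most abundant of all listed miRNAs in the runt brain, where it made up 19.5% of the listed RPM. In the normal brain it ranked 2 and made up 6.79%. There 1 row stood above it, miR-N444, at 230138 RPM. It ranked 3 in the normal heart, below miR-30a-5p and miR-N444, and 9 in the runt heart. In jaw skin it ranked 4, below miR-205a at 116144 RPM, a miRNA of stratified epithelium, miR-N444, and miR-204 at 55598 RPM. miR-211 stood at 27799 RPM there and, as miR-204, was highest in jaw skin and lowest in liver. These rows may share reads, which was not tested. At the level of miR-211, miR-204 would lie below miR-181a-5p at 33813 RPM, so this rank depends on how such reads are counted. In cloaca and tongue miR-181a-5p ranked 6. In cloaca miR-N444, miR-205a, miR-92-1-5p, miR-425-5p and miR-30a-5p stood above it, and in tongue miR-N444, miR-30a-5p, miR-148-5p, miR-26a-5p and miR-425-5p. Testis gave ranks 6 and 4 in runts and 7 and 8 in normal hatchlings. It ranked 9 in spleen, where miR-26a-5p led at 103376 RPM, followed by miR-21-5p at 37658 RPM and the lymphocyte miRNA miR-150 at 36221 RPM. It ranked 9 in stomach and 10 in small intestine, where miR-N1 led both at 133984 and 125413 RPM. In liver it ranked 10 and miR-122-5p, the main miRNA of vertebrate liver, led at 208151 RPM, which left miR-181a-5p at 0.0517 of that level.

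miR-181a-5p belonged to the small group of rows that stay high everywhere. Of 313 rows compared, each mature sequence name used once, 8 held at least 5000 RPM in every library. The next row, let-7j-5p, had a minimum of 4913 RPM, so the count depends on where the cut is set. The lowest value of miR-181a-5p, 8501 RPM, was the fifth highest minimum, after those of miR-26a-5p at 20873 RPM, miR-N444 at 20117 RPM, miR-148-5p at 12039 RPM and miR-30a-5p at 10909 RPM. Its mean over tissues ranked 6. The tissue specificity index tau, which is 0 for a row equal in all tissues and 1 for a row seen in 1 tissue, was 0.112 on the log2 scale, against a median of 0.423 over the 313 rows. Abundant rows have low tau in general, and the median of the 25 most abundant was 0.119, with 10 of them lower than miR-181a-5p. let-7j-5p and let-7a-5p, which ran in parallel over the libraries, are both among the 10. Brain was the highest tissue for 62 of the 313 rows (19.8%). Among the 25 most abundant rows it was the highest tissue for 2, miR-181a-5p and let-7i, a let-7 family member, whose brain mean was 15517 ± 4163 RPM (SD, n = 2).

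Ratios of 2 miRNAs within a library do not depend on how the library is scaled. The 5 partners, miR-148-5p, miR-26a-5p, miR-30a-5p, miR-425-5p and miR-92-1-5p, are the most abundant rows of a list of broadly expressed miRNAs. Against miR-30a-5p, the ratio was 1.47 in the runt and 1.67 in the normal brain. It was 0.317 in the runt and 0.319 in the normal heart, and in testis 0.617 and 0.798 in runts, against 0.815 and 0.779 in normal hatchlings. Outside brain the highest ratio was 1.28, in jaw skin, so both brain libraries lay above all 13 others. Within a tissue this ratio spread 1.14-fold in brain, 1.00-fold in heart and 1.32-fold in testis, while the level of miR-181a-5p itself spread 2.99-fold to 3.70-fold. Brain, testis and heart did not overlap in it. No other partner held all 3 spreads this narrow. The spreads in brain, heart and testis were 1.57-fold, 3.06-fold and 2.72-fold against miR-148-5p, 1.93-fold, 1.19-fold and 1.92-fold against miR-425-5p, 2.07-fold, 1.86-fold and 1.41-fold against miR-92-1-5p, and 3.54-fold, 7.78-fold and 3.12-fold against miR-26a-5p.

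Against miR-92-1-5p, from the miR-17-92 family of clusters, the ratio was 15.9 in the runt and 7.66 in the normal brain, with 0.614 to 3.19 elsewhere. The ratio to miR-425-5p was 3.31 and 6.40 in the runt and normal brain and at most 1.64 elsewhere. The ratio to miR-148-5p was 4.71 and 3.01 in the runt and normal brain, next to 2.81 in jaw skin. Against miR-26a-5p the brain libraries did not stand apart. There the runt brain gave 3.57 and the normal brain 1.01, with 1.82 in the normal heart, 1.62 in jaw skin and 1.30 in cloaca. The brain was thus above every other library in 4 of the 5 ratios. In heart the ratio to miR-26a-5p was 0.233 in the runt, against 1.82 in the normal hatchling.

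**Figure D2:**
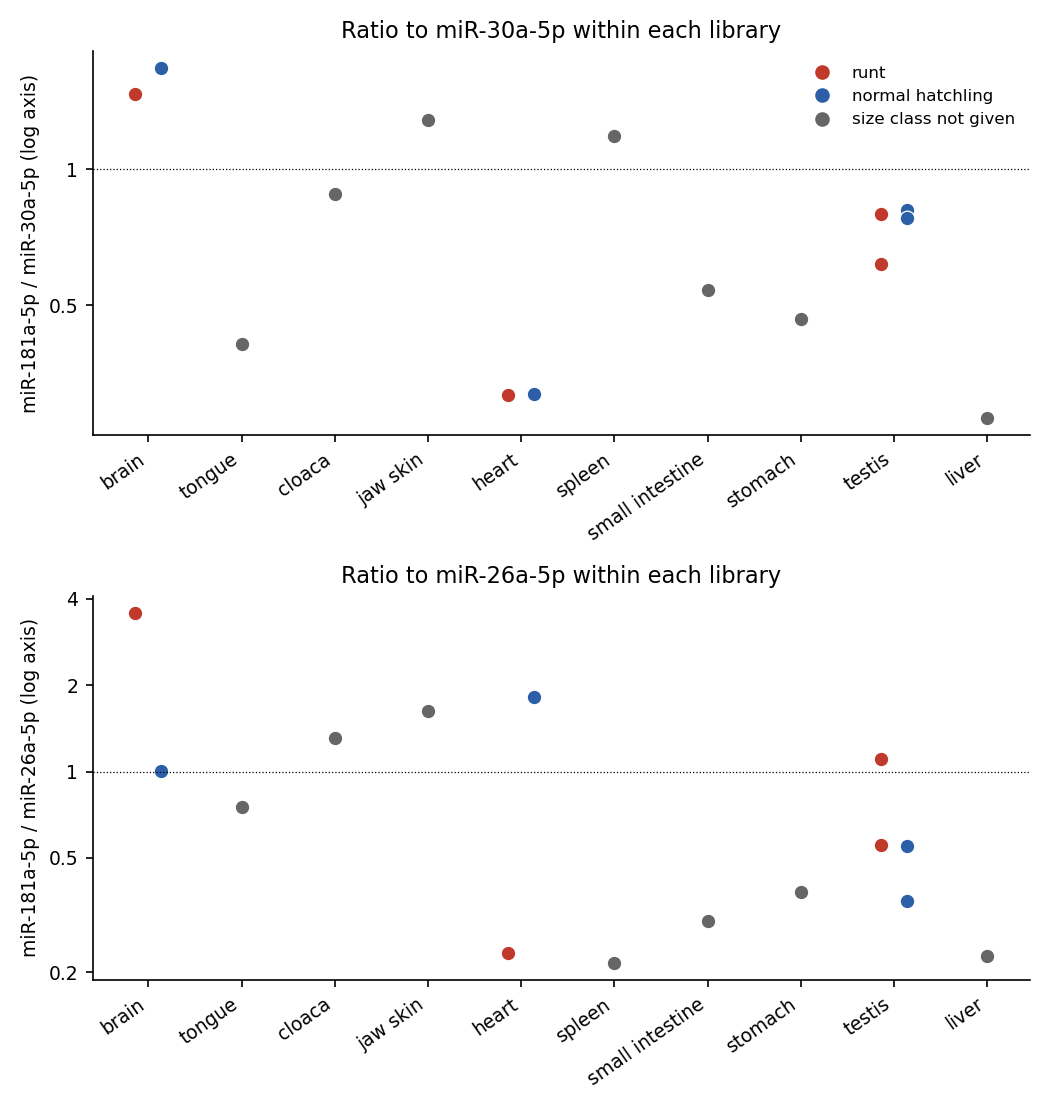
Ratio of the RPM of miR-181a-5p to that of miR-30a-5p (upper panel) and of miR-26a-5p (lower panel) within each of the 15 libraries, log axes, coloured by size class; the dotted line marks equal levels. The runt and normal libraries of heart give 0.317 and 0.319 for miR-30a-5p, but 0.233 and 1.82 for miR-26a-5p.

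Brain was compared with testis, the tissue with most libraries, in a limma fit over all 15 libraries. miR-181a-5p was higher in brain than in testis. Its log2 fold on scaled RPM was 2.27 (SE 0.53, 95% interval 1.10 to 3.44), a 4.82-fold difference. The adjusted p from limma was 0.00447, with Benjamini-Hochberg adjustment over 319 tested rows. In that comparison 45.1% of rows passed the threshold of 0.05, 18.5% as higher in brain, and 53 rows had a higher fold than miR-181a-5p. Both brain libraries lay above all 4 testis libraries. The exact two-sided permutation test on this row gave p = 0.0667, the smallest that 2 against 4 libraries allow. Without the runt brain library the fold was 1.76 and the limma adjusted p 0.0634. In bulk tissue, more miR-181a-5p per cell and more cells that hold it cannot be told apart.

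The log2 fold of brain over the mean of the other 9 tissues, each weighted equally, was 1.83 (SE 0.47, 95% interval 0.79 to 2.87), 3.55-fold, with an adjusted p from limma of 0.0134. In this comparison 31.3% of the rows passed and 21% were higher in brain. The call was lost on deposited RPM without rescaling, where the fold was 1.66 with a limma adjusted p of 0.0511, and without the runt brain library, at 1.32 with 0.221. Brain against heart gave a log2 fold of 1.52 (SE 0.62, 95% interval 0.17 to 2.88) and did not pass, with a limma adjusted p of 0.114, where 21.6% of rows passed, 14.4% as higher in brain. The normal heart library, at 50004 scaled RPM, was close to the normal brain library at 56918. The runt heart library stood at 15856. Without the normal heart library, brain over heart was 2.35 with a limma adjusted p of 0.0228. Testis against heart gave a log2 fold of -0.75 (SE 0.53, 95% interval -1.92 to 0.42) and a limma adjusted p of 0.347, where 34.5% of rows passed. That fold was 0.081 without the normal heart library, and -1.58 with a limma adjusted p of 0.0443 without the runt heart library.

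Lists of other miRNAs were read beside it. Of 15 listed rows of brain and neuron families, 10 passed the filter on low values, and all 10 were higher in brain than the mean of the other tissues, where 21% of all rows were higher. Their median log2 fold was 5.28, against -0.12 over all rows. Of these, miR-124-5p passed the filter only through the 2 brain libraries, at 71.6 RPM in the runt and 107 RPM in the normal one. Without the runt brain, at 46 RPM, miR-137-5p would not have passed either. The count and median of this list therefore rest in part on rows that were tested because they are high in brain. Against testis 9 of the 10 were higher, where 18.5% of all rows were. Against heart 9 of the 10 were higher, where 14.4% of all rows were, or 4 without the runt brain library. miR-9-5p, which acts in neural progenitors, had 13244 RPM in the runt and 35791 RPM in the normal brain, and at most 307 RPM elsewhere. miR-128-1-5p, a miRNA enriched in mammalian neurons, had 28582 and 16195 RPM in the runt and normal brain and 424 to 2532 RPM elsewhere. miR-132, induced by activity in mammalian neurons, had 11803 and 1713 RPM in the runt and normal brain. miR-129-5p averaged 11265 ± 7189 RPM and miR-138-5p, which limits dendritic spine size in rat neurons, 1538 ± 1455 RPM in brain (SD, n = 2 each). miR-181a-5p exceeded each of these in both brain libraries, while its fold over the mean of the other tissues was smaller than all 10 of theirs.

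**Figure D3:**
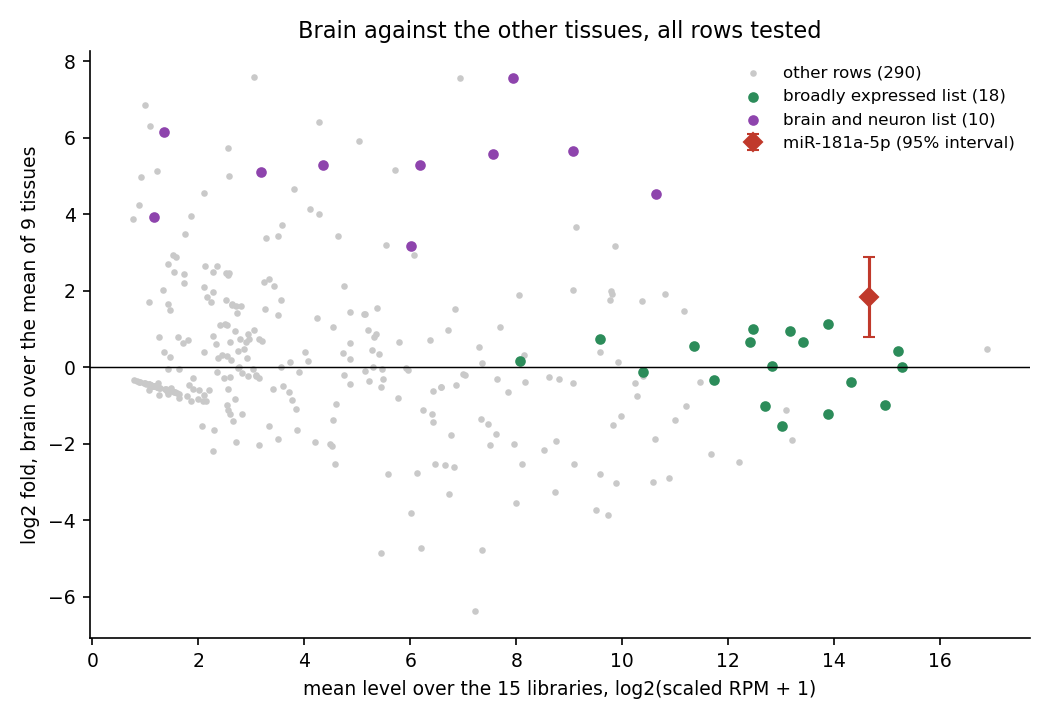
Log2 fold of brain over the mean of the 9 other tissues (y axis) against the mean level over the 15 libraries (x axis) for the 319 rows tested; miR-181a-5p is the red diamond with its 95% interval, brain and neuron families are purple and broadly expressed families green. miR-181a-5p lies at 1.83, below the 10 brain rows and above the 18 broadly expressed rows.

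Of the 18 broadly expressed rows, all of which were tested, none was higher in brain than the mean of the other tissues and 2 were lower, with a median log2 fold of 0.09; over all rows 10.3% were lower. The 2 were miR-92-1-5p, at a log2 fold of -1.21 (limma adjusted p = 0.0367), and miR-30c-5p, at -1.53 (limma adjusted p = 0.0325). The call of miR-92-1-5p was lost in 7 of the other settings of processing, those without either brain library among them, and kept in 9. Its log2 fold was -1.25 to -1.17 when single libraries were left out. miR-26a-5p, a broadly expressed regulator of growth, gave 0.00 with SE 0.47, and miR-30a-5p 0.43 with SE 0.48. miR-181a-5p had a higher fold than all 18. Of the 18, let-7j-5p and let-7a-5p ran in parallel over the libraries, each at a log2 fold of 0.67, so they are not separate signals. Of 4 white blood cell rows, miR-150 and the myeloid miRNA miR-223 were lower in brain, with log2 folds of -2.26 and -2.52 and limma adjusted p of 0.00342 and 0.0372. Without the runt brain library both calls were lost. Over all other settings, the call of miR-150 was lost in 1 and kept in 15. That of miR-223 was lost in 4 and kept in 12. The summed white blood cell markers were 837 and 902 RPM in the runt and normal brain libraries and 40229 RPM in spleen, where miR-181a-5p stood at 22308 RPM. Of 7 tested striated muscle rows, 6 were lower in brain than in heart, where 7.21% of all rows were lower. The summed heart and muscle markers were 62073 and 64459 RPM in the runt and normal heart libraries, although single members differed between the 2 libraries. There miR-1-1-5p, a promoter of muscle differentiation in mammals, had 4626 RPM in the runt and 610 RPM in the normal heart. miR-499-3p had 15279 and 6319 RPM, and miR-133-5p, which shares reads with miR-133c-5p, had 27204 and 37916 RPM. miR-133c-5p, at 13602 and 18958 RPM, is also in the marker sum and among the 7 striated muscle rows. Shared reads thus count more than once in both, and the order of the 2 heart libraries cannot be read from the sum. Markers of other tissues differed as well in the runt and normal heart. They stood at 118 and 3.45 RPM for small intestine, 15606 and 3800 RPM for smooth muscle and 920 and 113 RPM for liver. White blood cell markers had 4103 and 2283 RPM and the red blood cell marker 32.8 and 8.05 RPM. The part of all these markers in the level of miR-181a-5p in heart was not tested.

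Runts were compared with normal hatchlings, first in testis. On deposited RPM both runt libraries, at 19582 and 31448 RPM, lay above both normal ones, at 16600 and 8501 RPM, and the log2 difference was 1.06. The median of all rows on that scale was 0.59, and miR-N444 took 29.0% and 26.5% of the RPM in runts, against 34.4% and 60.0% in normal hatchlings. On scaled RPM the groups overlapped and the log2 difference was 0.13 (SE 0.23, 95% interval -0.46 to 0.71), with a limma adjusted p of 0.706. The exact permutation test gave p = 0.667, where 0.33 is the smallest that 2 against 2 libraries allow. In this fit 1.71% of 234 rows passed. The testis marker stood at 127 and 110 RPM in runts, against 435 and 339 RPM in normal hatchlings. Heart and muscle markers had 3520 and 717 RPM, against 210 and 87.9 RPM. The liver marker had 286 and 3152 RPM, against 43.3 and 66.8 RPM. Markers of small intestine, smooth muscle and white blood cells overlapped between the groups. The part of these markers in the level of miR-181a-5p in testis was not tested. Over testis, heart and brain together, with tissue as a term, the log2 difference was -0.10 (SE 0.45, 95% interval -1.08 to 0.89) with a limma adjusted p of 0.971. No row passed in that fit (0% of 293), while 20 had an unadjusted p under 0.05.

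The runt to normal ratios of brain and heart had opposite signs. In brain the runt library, at 127211 RPM, exceeded the normal one, at 41873 RPM, by 3.04 times on deposited RPM and by a log2 ratio of 1.02 on scaled RPM. In that pair 39.8% of rows differed at least 2-fold, 22.3% as higher and 17.6% as lower in the runt, and 67 of 319 rows had a higher ratio. In heart the runt library, at 16259 RPM, was below the normal one, at 48686 RPM, with a log2 ratio of -1.66 on scaled RPM. There 44.5% of rows differed at least 2-fold, 26.3% as higher and 18.2% as lower in the runt, and 20 rows had a lower ratio. With 1 library in each place, neither ratio has a replicate check. The brain ratio was 0.38 when each library was scaled against 1 library over all rows.

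The log2 ratio in heart minus that in brain was -2.67 on scaled RPM and -1.65 when each library was scaled against 1 library. That difference was not tested, since each of its 4 places holds 1 library. There were 56 rows with a mean of at least 1000 RPM. On scaled RPM, 5 of these were past 2-fold higher in the runt brain and past 2-fold lower in the runt heart, miR-181a-5p among them. Another 11 went the opposite way. The place of miR-181a-5p among the 5 depended on the scaling. Its brain log2 ratio was 1.02 on scaled RPM and 1.60 on deposited RPM. It was under 2-fold at 0.99 with median of ratios, 0.97 on shares without miR-N444 and 0.38 with scaling against 1 library. miR-30a-5p had scaled log2 ratios of 1.21 in brain and -1.65 in heart, and miR-425-5p had 1.97 in brain and -1.91 in heart.

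Across 313 rows the runt to normal log2 ratios of brain and heart ran against each other, with Pearson's r of -0.49 and Spearman's rho of -0.50. Rows are not independent, and all ratios of a tissue share its pair of libraries. Rows past 2-fold in both tissues were counted on scaled RPM. Of these, 31 were higher in the runt brain and lower in the runt heart, as miR-181a-5p was, and 33 went the opposite way. Only 6 were higher in both runts and 4 lower in both. The 33 included miR-21-5p, at -1.67 in brain and 2.02 in heart, the endothelial miRNA miR-126-5p, at -1.90 and 1.81, let-7f-5p, at -2.29 and 2.25, and miR-9-5p, at -2.02 and 1.27. Estimated depth was 2111860 reads in the runt and 4758050 in the normal brain, and 3141560 in the runt and 870070 in the normal heart. miR-N444 took 5.35% and 23.0% of the RPM in the runt and normal brain, and 4.55% and 12.7% in the runt and normal heart. The endothelial miR-126-5p itself stood at 759 and 1892 RPM in the runt and normal brain, and at 11283 and 3049 RPM in the runt and normal heart. The part of depth, miR-N444 or endothelial cells in the runt ratios of miR-181a-5p was not tested.

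**Figure D4:**
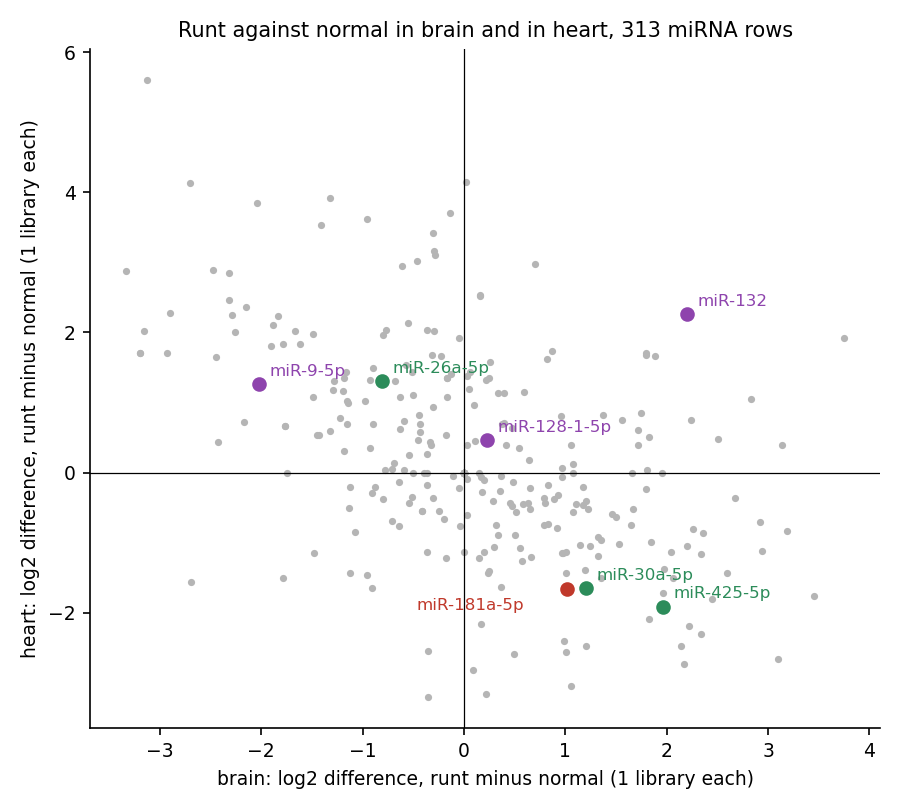
Log2 difference of scaled RPM, runt minus normal, in brain (x axis) and in heart (y axis), 1 library each, for 313 miRNA rows (grey), with miR-181a-5p in red, abundant broadly expressed rows in green and brain rows in purple. miR-181a-5p lies at 1.02 and -1.66, beside miR-30a-5p at 1.21 and -1.65, on the side that is higher in the runt brain and lower in the runt heart.

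The rows whose pattern over the 10 tissue means was most like that of miR-181a-5p, by Pearson's r of log2(scaled RPM + 1) among 312 other rows, were miR-N40 (r = 0.91), miR-128-1-5p (0.90), miR-N34 (0.90), miR-9-5p (0.88) and miR-132 (0.87). The median r over the 312 rows was -0.05, and 12 rows were above 0.8. Spearman's rho was 0.85 for miR-N40, 0.42 for miR-128-1-5p, 0.82 for miR-N34, 0.78 for miR-9-5p and 0.52 for miR-132, below its r for all 5. miR-N40 was a low row, at 177 and 33.4 RPM in the runt and normal brain and 0 to 22.8 RPM elsewhere. miR-N34 stood at 64.5 and 22.2 RPM in the runt and normal brain. It had 33.3 RPM in jaw skin, 33.2 in the second runt testis, 24.7 in tongue and 23.2 in cloaca. On deposited RPM its brain peak therefore rested on the runt brain library. Neither has a family name. Over the 15 single libraries r was 0.75 for miR-N40, 0.80 for miR-128-1-5p, 0.87 for miR-N34, 0.73 for miR-9-5p and 0.70 for miR-132, and 1 of the 5 remained among the 5 rows most alike. miR-N40, miR-128-1-5p, miR-N34 and miR-132 were higher in the runt brain than in the normal brain, as miR-181a-5p was. Only miR-9-5p was lower in the runt brain.

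**Figure D5:**
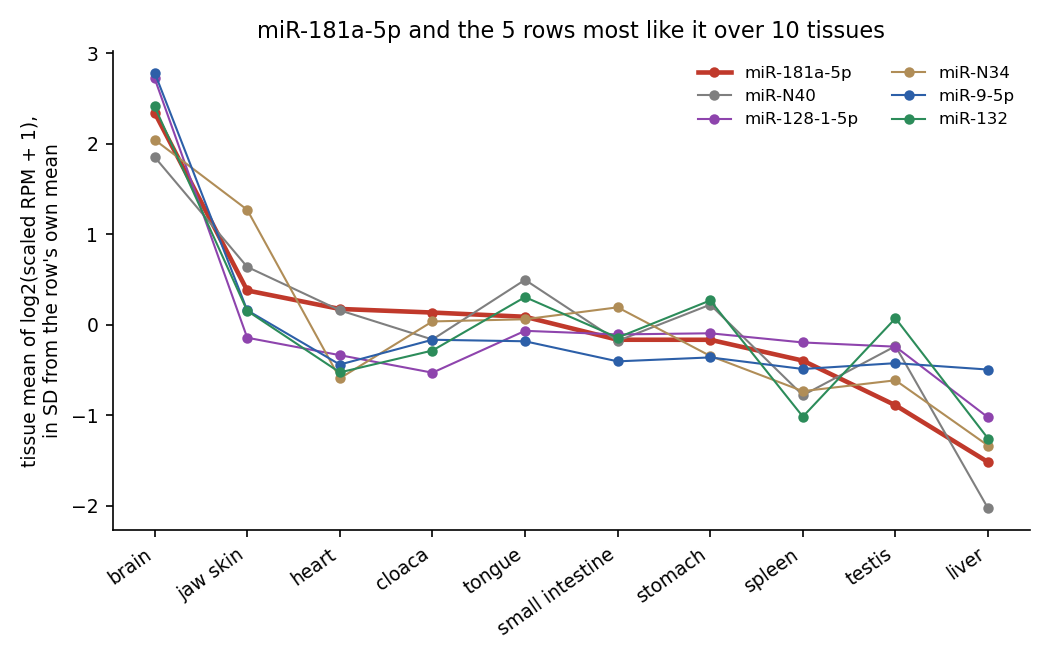
Tissue means of log2(scaled RPM + 1), in SD from each row's own mean over 10 tissues, for miR-181a-5p (thick red line) and the 5 rows with the highest Pearson's r to it, which was 0.87 to 0.91. All 6 rows are highest in brain and lowest in liver.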

How the data were processed

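The authors deposited 1 table of RPM for small RNA libraries built from flash-frozen tissue, per the labels' protocols. It was written by miRDeep2's quantifier, release 2_0_0_8, per the file headers, and bcl2fastq 2, Bowtie 1.2.0 and bedtools 2.26.0 are listed per the submitters' processing notes. No build of the genome is named in these sources, and 1 column that matched no sample was not used. Sequences were not analysed here. Low values were whole multiples of the worth of 1 read, within 0.1 reads, in 88.8% to 94.3% of cases, so the deposited RPM were not treated as counts. Depth and Poisson intervals come from that step.

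RPM were scaled by a trimmed mean of log ratios (30% of ratios, 5% of levels) against the geometric mean of the libraries. That reference was chosen after a scaling against 1 library was seen to follow depth. limma 3.58.1 in R 4.3.3 modelled log2(scaled RPM + 1), with a moderated variance that follows intensity, for rows that reached 10 RPM in 2 or more libraries. It was fitted for tissue contrasts over 15 libraries, for runts against normal hatchlings in testis and for the same over 3 tissues. The fit of brain against testis was also run on simulated data. Those data held tissue as the only difference between libraries and were not scaled, so they cannot check the part of size class or scaling. Runt and normal libraries of brain and heart, 1 of each, were compared without a test. Tests are two-sided, with Benjamini-Hochberg adjustment and a threshold of 0.05. Tissues with 1 library add no spread. Size class is known from column headers only. The miRNA and the lists of brain and neuron, white blood cell, striated muscle, endothelium and broadly expressed families were chosen with earlier results of these data known. Named rows were miR-181a-5p, the 5 most like it, rows above it in a library (all if 5 or fewer, else the first 3), and list members. miR-21-5p, let-7f-5p and others beside the runt ratios were named after their values were seen.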

Additional observations from a re-analysis of the deposited data

Results flagged for a closer look

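The runt to normal ratio of miR-181a-5p went in opposite directions in heart and brain. The difference, heart minus brain, was -2.67 on the log2 scale of scaled RPM. It rests on 1 runt and 1 normal library in each tissue, so the difference was not tested. On scaled RPM, 31 rows were past 2-fold higher in the runt brain and past 2-fold lower in the runt heart, miR-181a-5p among them. In another 33 rows past 2-fold in both tissues the directions were swapped, while 6 were higher in both runts and 4 lower in both. The brain log2 ratio of miR-181a-5p, 1.02 on scaled RPM, was under 2-fold on shares without miR-N444, at 0.97. Its place among the 31 therefore depended on the scaling. The 4 testis libraries held no outlying value of miR-181a-5p on deposited RPM, where the larger end gap, 0.517 of the range, was under Dixon's critical value.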

How the results depend on the processing

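No paired analysis was possible because the sample numbers are unique to each library and the columns carry none. Settings were deposited RPM, the listed share without miR-N444, median of ratios, scaling against 1 library, pseudocounts of 0.1 and 10 RPM, no filter, no trend, fewer tissues and leaving out single libraries. The cause of the changes below was not tested.

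For miR-181a-5p, leaving out single libraries gave log2 folds of 1.76 to 2.78 for brain minus testis, 0.69 to 2.35 for brain minus heart, -1.58 to 0.081 for testis minus heart, 1.32 to 2.34 for brain minus the other tissues, -0.024 to 0.28 for runts in testis and -0.47 to 0.42 for runts over 3 tissues. The runt brain library decided the brain calls: without it the limma adjusted p was 0.0634 against testis and 0.221 against the other tissues. On deposited RPM brain minus the other tissues was 1.66 (limma adjusted p = 0.0511). Runts in testis gave -0.015 with scaling against 1 library. Over 3 tissues, runts gave 0.54 on deposited RPM and 0.10 on shares without miR-N444. The untested difference of the runt ratios, heart minus brain, was -3.19 on deposited RPM, -2.45 on shares without miR-N444, -2.65 with median of ratios and -1.65 with scaling against 1 library. The brain log2 ratio of runt to normal was 1.60 on deposited RPM and 0.97 without miR-N444, and the heart ratio -1.58 and -1.48.

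Counts of rows called moved as well. Without the filter 654 rows were tested in place of 319. Higher rows were then 19.6% against 18.5% for brain minus testis and 14.1% (92 rows) against 14.4% (46) for brain minus heart. They were 20.6% (135) against 21% (67) for brain minus the others, so these higher shares moved little. The lower shares fell, to 15.7% from 26.6% for brain minus testis and to 3.52% from 7.21% for brain minus heart. For brain minus the others they fell to 5.35% from 10.3%. Testis minus heart went to 15.1% from 23.8% higher and to 7.34% from 10.7% lower. On shares without miR-N444, testis minus heart had 22 lower rows, against 34 on scaled RPM. Of 234 rows tested, runts in testis had 24 higher and 0 lower on deposited RPM, against 1 and 3 on scaled RPM. They had 3 higher without miR-N444, 2 with median of ratios and 2 with a pseudocount of 10 RPM. Over 3 tissues 1 row was higher on deposited RPM. Leaving out single libraries gave 26 to 59 higher rows for brain minus testis, 16 to 45 higher and 8 to 21 lower for brain minus heart, 21 to 35 lower for testis minus heart, 17 to 67 higher and 3 to 40 lower for brain minus the other tissues, 1 to 12 higher and 0 to 10 lower for runts in testis and 0 to 9 higher and 0 to 16 lower for runts over 3 tissues. The most abundant rows of each list, striated muscle aside, were also followed in tissue comparisons where they had passed the threshold in the main fit. Under these settings, 352 of their values kept direction and side of the threshold, 31 lost the threshold and 0 reversed. Because only rows that had passed were taken, none could gain the threshold, and the tally does not cover the other list rows. Likeness over single libraries was 0.75 for miR-N40, 0.80 for miR-128-1-5p, 0.73 for miR-9-5p and 0.70 for miR-132.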
